A study of Homo sapiens with 30 samples.

Results

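The matrix metalloproteinases and their tissue inhibitors described here are MMP1, MMP2, MMP7, MMP14, MMP15, TIMP1, TIMP2 and TIMP3, 8 of the 26,801 genes in the deposited table, taken by their symbols. They were read in 30 RNA-seq libraries of A549, an established human lung adenocarcinoma line, in 10 groups of 3. Each of 5 backgrounds was sequenced without (NE) and with (EX) a magnetic exposure labelled 2 H. Of these, 3 are RSRP1 knockouts, labelled KOA, iR_KOA and iR_KOA_D3, and 2 are wild type, labelled iR_WTA and iR_WTA_D3. The labels do not explain iR or D3, and the wild type was compared only with iR. How many knockout clones were used is likewise unstated, so loss of RSRP1 and the choice of a clone cannot be told apart.

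Matrix metalloproteinases are zinc proteases that cut extracellular matrix and cell-surface proteins. Most are secreted as inactive proenzymes, and the membrane-type members sit on the cell surface. TIMPs bind the active site of these proteases and block it, and TIMP2 has a further role, since together with MMP14 it forms the complex in which the proenzyme of MMP2 is cleaved. RNA levels, which are all that was measured here, do not give the amount of active enzyme.

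The promoter table from RefSeq (GRCh38.p14) held 5 of the 8 genes: MMP7, MMP14, MMP15, TIMP1 and TIMP3. The 250 bases before the start of MMP7 and of TIMP1 are shown because both genes were higher in the knockout in each genotype comparison below. Each is printed 5′ to 3′ on the gene's own strand, and capitals mark AP-1 and TATA matches. MMP7 lies on the minus strand (promoter at chr11:102530748-102530997) and TIMP1 on the plus strand (chrX:47582186-47582435).
MMP7: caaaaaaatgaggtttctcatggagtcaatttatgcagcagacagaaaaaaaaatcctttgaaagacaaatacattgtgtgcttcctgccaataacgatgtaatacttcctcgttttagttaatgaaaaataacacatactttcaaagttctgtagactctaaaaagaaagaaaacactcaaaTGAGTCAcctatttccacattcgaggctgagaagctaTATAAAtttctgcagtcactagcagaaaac
TIMP1: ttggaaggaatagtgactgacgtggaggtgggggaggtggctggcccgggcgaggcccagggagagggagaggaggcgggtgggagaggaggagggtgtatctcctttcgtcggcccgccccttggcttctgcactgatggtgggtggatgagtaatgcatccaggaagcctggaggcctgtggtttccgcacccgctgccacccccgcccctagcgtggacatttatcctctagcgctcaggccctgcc

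Both strands were searched for the AP-1 motif, spelled TGANTCA, and for the PEA3 motif of ETS factors, spelled AGGAAG. The search also took the promoter box TATAAA, the Sp1-type box GGGCGG, called the GC box here, and the TCF/LEF motif, spelled CTTTGAA. No match overlapped another. The MMP7 window held TGAGTCA from position −67 to −61 and TATAAA from −30 to −25, counted from the start, with 2 PEA3 and 2 TCF/LEF matches and no GC box. Of the 35,116 windows of this length in the table, 6.57% held the AP-1 motif, 10.7% the TATA motif, 28.7% the PEA3 motif, 42.6% the GC box and 3.8% the TCF/LEF motif. The TIMP1 window held 1 PEA3 match and 2 GC boxes. MMP15 held 5 GC boxes, TIMP3 5 and MMP14 1. The GC content was 33.6% for MMP7 and 64.8% for TIMP1, against a median of 58.0% over all windows. These are matches of letters, not measured binding.

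The libraries held 34,620,440 to 38,939,337 reads, recovered from the steps between low values. RSRP1, the targeted gene, was at 2.09 to 7.95 FPKM (read counts scaled to gene length and library size) in the 18 knockout libraries and at 37.4 to 63.4 FPKM in the 12 wild-type libraries, with no overlap. Of 6 epithelial markers, 5 had a median of at least 1 FPKM, led by KRT8 at 892 to 1395 FPKM. The fibroblast list summed to 0.524 to 6.12 FPKM over all libraries, with COL1A2 at 0 in 23 and DCN in 24 of the 30. COL1A1 was at 0.443 to 3.71 FPKM and THY1 at 0.00499 to 1.88 FPKM, and neither was at 0 in any library. The sum of the fibroblast list was 3.05 to 6.12 FPKM in iR wild type against 0.526 to 1.22 FPKM in iR knockout. The sum of the endothelial list ran the other way, at 0.0253 to 0.071 FPKM in iR wild type and 0.288 to 1.32 FPKM in iR knockout. Its higher values rest on 1 gene, CDH5, at up to 1.29 FPKM. PECAM1, VWF and KDR were at no more than 0.0114, 0.0229 and 0.044 FPKM. The leukocyte list summed to 30.0 to 47.0 FPKM, nearly all CD68 and CD14, with PTPRC at no more than 0.0411 FPKM. The part of these markers in the genotype results below was not tested.

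By level per length, TIMP2, TIMP1 and MMP7 were the abundant members in every library, MMP2 was abundant in the wild-type libraries, and MMP1, MMP14 and TIMP3 were close to 0 throughout. MMP7 ranged from 24.3 to 171.3 FPKM, TIMP2 from 82.7 to 143.1 FPKM and TIMP1 from 34.9 to 81.6 FPKM. MMP2 ranged from 1.17 to 57.8 FPKM and MMP15 from 3.78 to 5.75 FPKM. MMP14 reached 0.449 FPKM (9 to 60 reads per library), MMP1 0.344 FPKM (0 to 25 reads) and TIMP3 0.0478 FPKM (0 to 8 reads). A filter of at least 1 FPKM in at least 3 libraries kept 5 of the 8 members (MMP2, MMP7, MMP15, TIMP1 and TIMP2) among 12,086 genes, and these 5 were tested in one limma fit on log2(FPKM + 1). The 3 low members were compared by exact permutation over libraries.

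**Figure D1:**
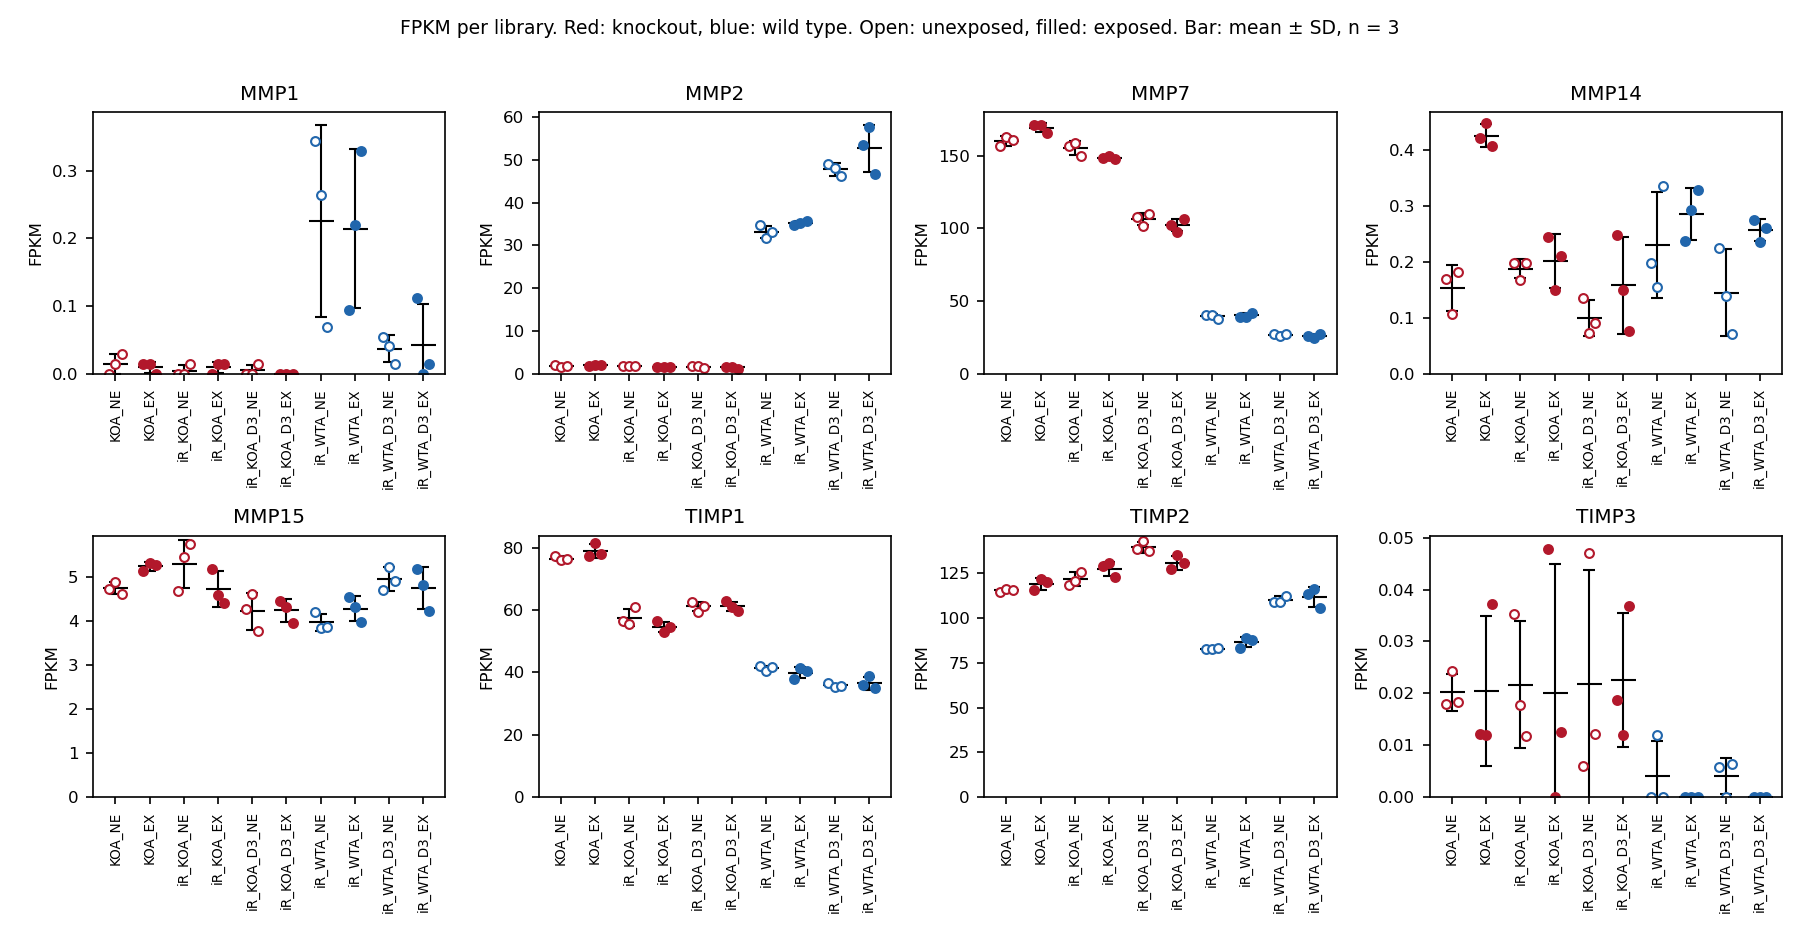
FPKM of the 8 members in each of the 30 libraries, by group on the horizontal axis, with the mean and SD of 3 libraries (lower bars are drawn from 0). MMP2 separates wild type (31.8 to 57.8 FPKM) from knockout (1.17 to 2.03 FPKM), MMP7 does so in the opposite direction, and MMP15 stays within 3.78 to 5.75 FPKM.

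MMP2, the gelatinase that degrades type IV collagen and denatured collagens, was nearly lost from the knockout (chromosome 16, 55478830 to 55506691). The 3 unexposed iR wild-type libraries held 34.7, 31.8 and 33.1 FPKM and the 3 unexposed iR knockout libraries 1.71, 1.81 and 1.69 FPKM. With exposure the values were 34.8, 35.4 and 35.8 against 1.55, 1.64 and 1.58 FPKM. With D3 they were 49.1, 48.2 and 46.2 against 1.68, 1.85 and 1.40 FPKM unexposed, and 53.6, 57.8 and 46.8 against 1.57, 1.65 and 1.17 FPKM exposed. No knockout library reached a wild-type library. The means were 19.1-fold (iR unexposed), 22.2-fold (iR exposed), 29.1-fold (D3 unexposed) and 36.1-fold (D3 exposed) lower in the knockout. On the log2(FPKM + 1) scale, which understates changes of low values, the differences were −3.64, −3.81, −4.21 and −4.45 (SE 0.072 each, n = 3 and 3, limma adjusted p = 1.37e-23, 4.85e-24, 4.7e-25 and 1.75e-25). Counted from the largest fall among the 12,086 genes, MMP2 ranked 6, 6, 5 and 4. Fewer cells with MMP2 RNA and less of it per cell cannot be told apart in these bulk samples.

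MMP7, matrilysin, is a small secreted protease typical of glandular epithelium and was higher in the knockout (chromosome 11, 102520508 to 102530747). Unexposed iR libraries held 156.8, 159.1 and 150.1 FPKM in the knockout and 40.7, 40.3 and 37.4 FPKM in the wild type. Exposed iR libraries held 148.6, 149.8 and 147.6 against 39.2, 39.2 and 41.8 FPKM. With D3, the unexposed values were 107.8, 101.9 and 109.6 against 26.9, 26.0 and 27.4 FPKM, and the exposed values 102.6, 97.7 and 106.5 against 26.0, 24.3 and 27.6 FPKM. Every knockout library lay above every wild-type library, by a ratio of group means that stayed between 3.71 and 3.97. The log2 differences were 1.95 (iR unexposed), 1.86 (iR exposed), 1.95 (D3 unexposed) and 1.94 (D3 exposed), each with an SE of 0.043 (adjusted p = 1.11e-22, 2.85e-22, 7.36e-23 and 8.34e-23). The gene ranked 58, 63, 86 and 85 from the largest rise. The knockout without iR, which has no wild-type counterpart here, held 156.6, 162.9 and 160.8 FPKM unexposed and 171.3, 171.0 and 165.9 FPKM exposed.

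TIMP1 and TIMP2, the secreted inhibitors, were also higher in the knockout, by smaller steps. TIMP1 (chromosome X, 47582436 to 47586789) held 56.4, 55.7 and 60.9 FPKM in unexposed iR knockout against 42.0, 40.4 and 41.7 FPKM in iR wild type, with no overlap between the groups. Its log2 differences were 0.47, 0.44, 0.76 and 0.73 over the 4 genotype comparisons in the same order (SE 0.041, adjusted p = 2.06e-10, 5.71e-10, 1.14e-14 and 2.36e-14). TIMP2 (chromosome 17, 78852977 to 78925387) held 118.3, 120.9 and 125.9 FPKM in unexposed iR knockout and 82.7, 82.8 and 83.1 FPKM in iR wild type. Its differences were 0.55, 0.55, 0.34 and 0.23 (SE 0.036, adjusted p = 8.46e-13, 7.26e-13, 7.77e-09 and 4.38e-06). For both inhibitors, all knockout libraries lay above the wild-type libraries in each of the 4 comparisons.

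MMP15, a membrane-type protease (chromosome 16, 58025754 to 58046901), did not keep one direction. Unexposed iR libraries held 4.69, 5.45 and 5.75 FPKM in the knockout and 4.20, 3.85 and 3.87 FPKM in the wild type, a rise of 0.34 (SE 0.069, adjusted p = 0.000148). With D3 the unexposed knockout held 4.27, 4.61 and 3.78 FPKM and the wild type 4.70, 5.24 and 4.92 FPKM, a fall of 0.19 on the log2 scale (adjusted p = 0.017). That fall did not pass with median-of-ratios scaling (−0.11, adjusted p = 0.187), without replicate 3 of iR_KOA_D3_NE (−0.13, adjusted p = 0.128) or without replicate 2 of iR_WTA_D3_NE (−0.16, adjusted p = 0.0786). In the exposed comparisons the differences were 0.12 (95% interval −0.03 to 0.26) and, with D3, −0.13 (−0.27 to 0.01), and the latter passed without replicate 3 of iR_WTA_D3_EX (−0.20, adjusted p = 0.0201).

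Genotype therefore gave 5, 4, 5 and 4 calls among the 5 tested members in iR unexposed, iR exposed, D3 unexposed and D3 exposed libraries, where 65.3%, 65.6%, 69.1% and 69.9% of all genes were called. The counts lie near that background, and the sizes are what set MMP2 and MMP7 apart from most genes. MMP2, MMP7, TIMP1 and TIMP2 were called in the same direction in all 4 comparisons, as were 46.6% of genes. MMP2 and MMP7 also exceeded an absolute log2 difference of 1 in each, as did 3.35% of genes. Groups did not overlap in 18 of the 20 member comparisons, where 68.3%, 65.1%, 75.2% and 68.2% of all genes did not overlap. These 4 comparisons share no library, but all 12 knockout libraries come from the RSRP1 knockout.

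The 3 low members also differed by genotype, at levels of few reads. MMP1, the interstitial collagenase (chromosome 11, 102789919 to 102798160), had 4 reads in the 12 iR knockout libraries and 113 reads in the 12 iR wild-type libraries. Without D3 the wild-type libraries held 0.344, 0.263 and 0.0686 FPKM unexposed and 0.0944, 0.22 and 0.329 FPKM exposed. With D3 they held 0.0545, 0.0413 and 0.0147 FPKM unexposed and 0.112, 0 and 0.0144 FPKM exposed. The mean difference between knockout and wild type within conditions was −0.125 FPKM, lower in 4 of 4 conditions (two-sided exact permutation p = 5e-05, adjusted over 6 such tests 0.0003). All 12 iR knockout libraries held 0 or 1 read, under the level of 3 reads (0.0391 to 0.044 FPKM). In FPKM the groups overlapped only in exposed D3 libraries, where a wild-type library also held 0. In unexposed D3 libraries they met in reads, since replicate 3 of each genotype held 1 read (0.0141 and 0.0147 FPKM). Over the 4 comparisons, 65.1% to 75.2% of the 12,086 tested genes did not overlap.

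TIMP3, the inhibitor that binds to matrix (chromosome 22, 32801705 to 32863041), had the opposite pattern, with 43 reads in the iR knockout and 4 in the iR wild type, where 9 of 12 libraries were listed at 0. Its mean difference was 0.0195 FPKM, higher in 4 of 4 conditions (exact permutation p = 0.0002, adjusted p = 0.0006), close to the level of 3 reads (0.0168 to 0.0189 FPKM). MMP14, the membrane-type protease that activates MMP2 (chromosome 14, 22836585 to 22847758), was at 0.0730 to 0.249 FPKM in the iR knockout and 0.0702 to 0.336 FPKM in the iR wild type. Its mean difference was −0.0677 FPKM (exact permutation p = 0.0088, adjusted p = 0.0132), and the ranges overlapped.

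Within a library, the balance among the members differed between genotypes accordingly. MMP7 made up 95.4% ± 0.685 (SD, n = 18) of the summed FPKM of the 5 MMPs in the knockout libraries. In unexposed iR wild type MMP7 and MMP2 held 51.2% ± 1.44 and 43.1% ± 1.34 (SD, n = 3), and with D3 33.6% ± 1.15 and 60.0% ± 1.05. The ratio of MMP2 to TIMP2 was 0.00892 to 0.0177 in the knockout and 0.384 to 0.497 in the wild type, so the ranges were far apart. The ratio of MMP7 to TIMP1 was 1.60 to 2.86 in the knockout and 0.624 to 1.04 in the wild type. The 3 TIMPs together held 174.8 to 203.3 FPKM in the knockout and 121.1 to 155.2 FPKM in the wild type. The 5 MMPs together held 103.8 to 178.8 and 74.8 to 87.1 FPKM. The ratio of these sums, MMPs over TIMPs, was 0.530 to 0.943 in the knockout and 0.531 to 0.652 in the wild type, so the ranges overlapped. These shares and sums leave out family genes outside the members, among them MMP24 (12.7 to 20.3 FPKM) and TIMP4 (14.7 to 43.6 FPKM). With D3 the unexposed and exposed means of the MMP over TIMP ratio were 0.560 and 0.563 in the knockout and 0.546 and 0.564 in the wild type.

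**Figure D2:**
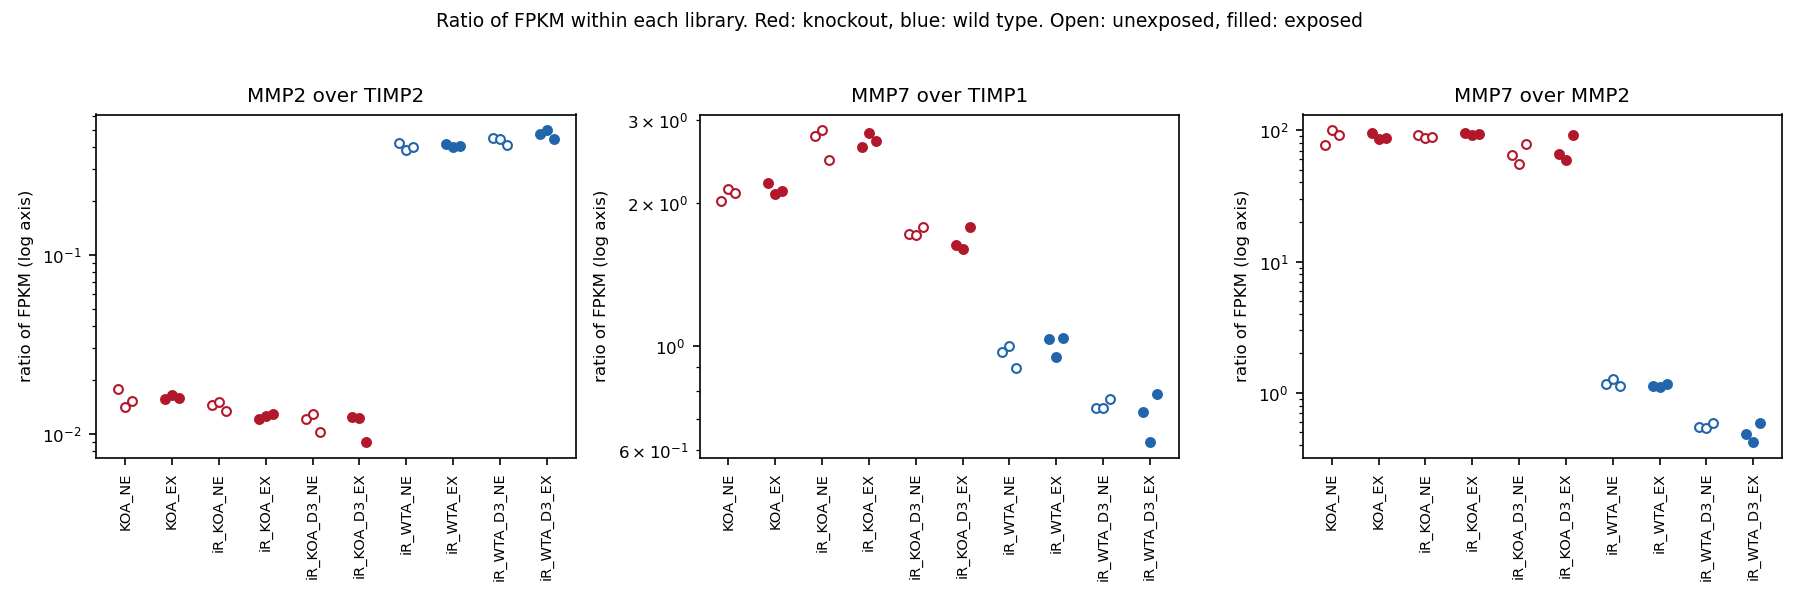
Ratios of FPKM within each library on log axes, by group. MMP7 over MMP2 runs from 55.1 to 100.1 in the knockout and from 0.42 to 1.27 in the wild type, and the wild-type values are lower with D3 than without.

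Magnetic exposure left the 5 tested members nearly at the level of the unexposed libraries in all 5 backgrounds. Of 25 member comparisons, 1 passed, while 41.5% (KOA), 35.3% (iR_KOA), 45.1% (iR_KOA_D3), 28.6% (iR_WTA) and 41.8% (iR_WTA_D3) of all genes were called. The 25 log2 differences ran from −0.13 to 0.13, and their 95% intervals together from −0.28 to 0.28. The median absolute difference over the members was 0.047 to 0.074 by background, and over all genes 0.103 to 0.143. Groups did not overlap in 8 of the 25, against 57.7%, 41.4%, 55.9%, 42.2% and 46.7% of genes in the same order of backgrounds. At an unadjusted p under 0.05 the count was also 1.

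The one call was TIMP2 in iR_KOA_D3, with 127.2, 135.0 and 130.7 FPKM exposed and 138.6, 143.1 and 137.3 FPKM unexposed. All 3 exposed libraries were lower, by −0.09 on the log2 scale (SE 0.036, adjusted p = 0.04). The call was lost with no filter on low values (adjusted p = 0.0546), with median-of-ratios scaling (−0.06, adjusted p = 0.241) and in 4 fits that left out 1 of its libraries (adjusted p = 0.0647 to 0.167). MMP2 in exposed against unexposed iR_WTA_D3 differed by 0.13 (95% interval −0.02 to 0.28, adjusted p = 0.145), and passed with limma-voom on recovered reads (0.14, adjusted p = 0.0397) and without replicate 3 of the exposed group (0.21, adjusted p = 0.0224). MMP7 differed by 0.08 in KOA, −0.06 in iR_KOA, −0.06 in iR_KOA_D3, 0.02 in iR_WTA and −0.05 in iR_WTA_D3, and none of these passed (adjusted p = 0.135 to 0.747). MMP15 in iR_KOA differed by −0.13 (adjusted p = 0.138) and passed without replicate 1 of iR_KOA_NE (−0.20, adjusted p = 0.0341).

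Whether exposure acted differently between genotypes, with D3 or with iR was tested by 5 interactions. None of the 5 tested members passed any of them by limma, while 0.538% (genotype in iR), 2.38% (genotype in iR with D3), 4.14% (D3 in the knockout), 1.67% (D3 in the wild type) and 5.08% (iR in the knockout) of genes were called. Of the 25 values, 6 had an unadjusted p under 0.05. The lowest adjusted p was that of TIMP2 for D3 in the knockout (−0.16, SE 0.051, adjusted p = 0.0741), which passed without replicate 3 of iR_KOA_EX or of iR_KOA_NE (adjusted p = 0.0466 and 0.0339).

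Among the 3 low members, MMP14 rose with exposure. In KOA it was at 0.422, 0.449 and 0.408 FPKM (53 to 60 reads) exposed and 0.170, 0.106 and 0.182 FPKM (14 to 24 reads) unexposed, with no overlap. In iR_WTA_D3 it was at 0.275, 0.236 and 0.260 FPKM exposed and 0.225, 0.139 and 0.0702 FPKM unexposed, again without overlap. The groups overlapped in iR_KOA, iR_KOA_D3 and iR_WTA. Of the 12,086 tested genes, 57.7% did not overlap in KOA and 46.7% in iR_WTA_D3, so the separation is common. The exposed mean was higher in 5 of 5 backgrounds, by 0.103 FPKM on average (two-sided exact permutation within backgrounds, p = 0.00107, adjusted p = 0.00214). Over the 4 iR backgrounds without KOA the difference was 0.0601 FPKM (exact permutation p = 0.0214). For MMP1 and TIMP3 the exposure differences were −0.0021 and −0.00168 FPKM (exact permutation p = 0.901 and 0.717).

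**Figure D3:**
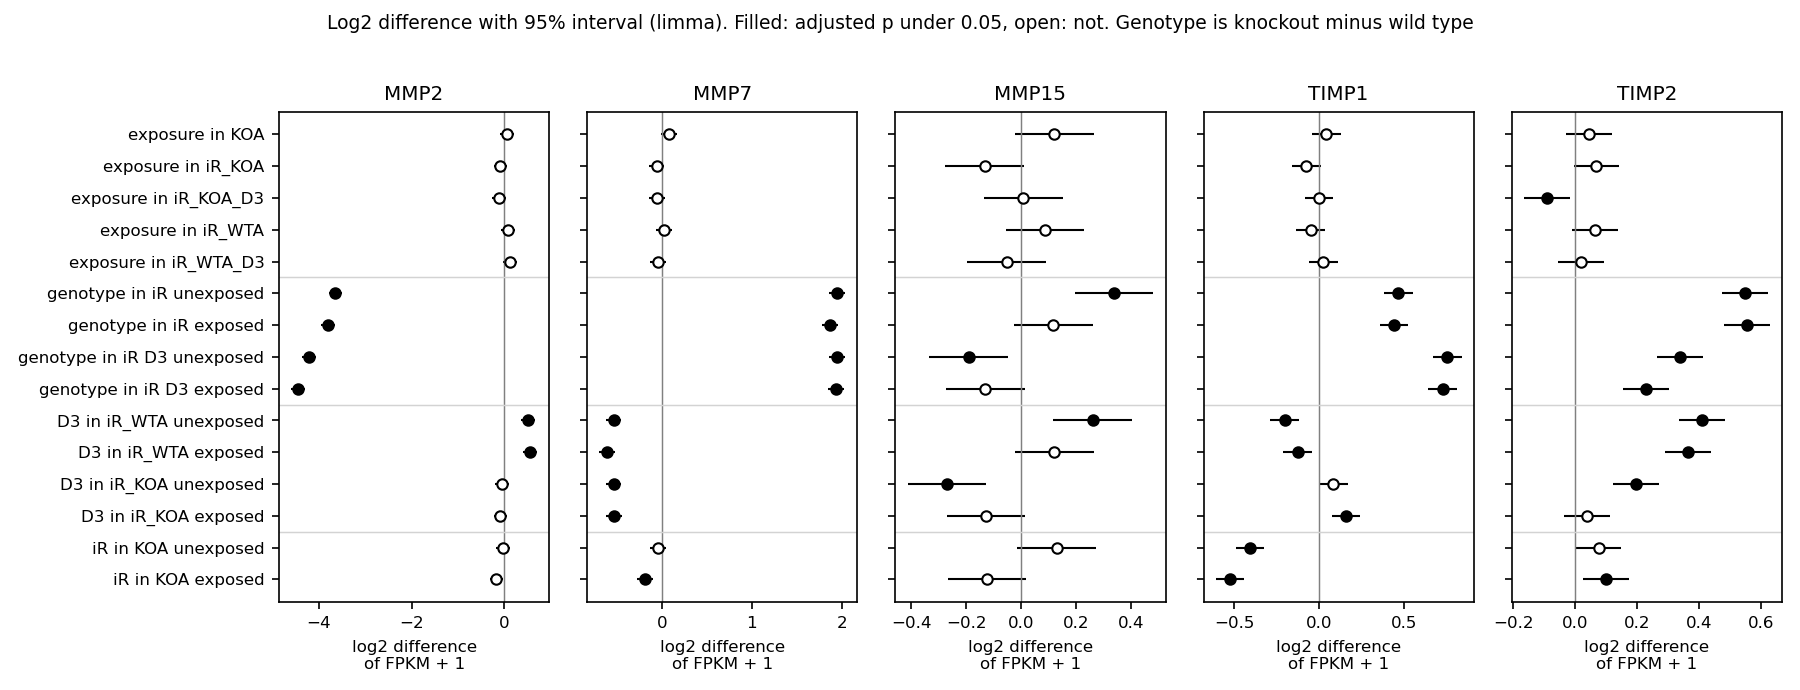
Log2 differences of the 5 tested members, with 95% intervals, in the 15 comparisons of 2 groups (each panel has its own horizontal scale). The 25 exposure values lie between −0.13 and 0.13, whereas genotype moves MMP2 by −3.64 to −4.45 and MMP7 by 1.86 to 1.95.

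The label D3 went with lower MMP7 in both genotypes and with higher MMP2 in the wild type. MMP7 fell in unexposed wild type from 40.7, 40.3 and 37.4 to 26.9, 26.0 and 27.4 FPKM, and in unexposed knockout from 156.8, 159.1 and 150.1 to 107.8, 101.9 and 109.6 FPKM. The log2 differences were −0.54 in both (SE 0.043, adjusted p = 1.61e-10 and 7.23e-11), and −0.61 and −0.54 in exposed wild type and knockout (adjusted p = 1.71e-11 and 9.2e-11). All 4 pairs of groups were separate. MMP2 rose from a mean of 33.2 ± 1.48 to 47.9 ± 1.48 FPKM in unexposed wild type (SD, n = 3; 0.52, adjusted p = 1.89e-06) and from 35.3 ± 0.473 to 52.7 ± 5.56 FPKM in exposed wild type (0.56, adjusted p = 5.61e-07). In the knockout it differed by −0.05 and −0.08 (95% intervals −0.20 to 0.10 and −0.23 to 0.07).

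Among the inhibitors, TIMP2 rose with D3 in wild type, from 82.8 ± 0.2 to 110.3 ± 2.03 FPKM unexposed (SD, n = 3; 0.41, adjusted p = 1.13e-09) and from 86.7 ± 3.02 to 111.8 ± 5.66 FPKM exposed (0.36, adjusted p = 8.41e-09). In the knockout it rose by 0.20 unexposed (adjusted p = 5.46e-05), and the exposed difference was 0.04 (adjusted p = 0.408), which passed with median-of-ratios scaling (0.13, adjusted p = 0.0121). TIMP1 fell in wild type by 0.20 on the log2 scale unexposed (adjusted p = 0.000215) and by 0.13 exposed (adjusted p = 0.0136), and rose in exposed knockout by 0.16 (adjusted p = 0.00181). The exposed wild-type call was lost with median-of-ratios scaling (−0.08, adjusted p = 0.143) and without replicate 1 or 3 of iR_WTA_D3_EX or replicate 2 of iR_WTA_EX (adjusted p = 0.0515 to 0.0857). In unexposed knockout TIMP1 differed by 0.09 (adjusted p = 0.0784), which passed with median-of-ratios scaling (0.18, adjusted p = 0.000901) and without replicate 3 of iR_KOA_NE (0.12, adjusted p = 0.016).

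MMP15 moved in opposite directions with D3 in unexposed libraries, with a rise of 0.26 in wild type (adjusted p = 0.00323) and a fall of 0.27 on the log2 scale in the knockout (adjusted p = 0.00193). In exposed libraries it differed by 0.12 and −0.13 (adjusted p = 0.161 and 0.126), and the former passed without replicate 3 of iR_WTA_D3_EX (0.19, adjusted p = 0.0405). Calls among the 5 members numbered 5 and 4 in unexposed and exposed wild type and 3 and 2 in the knockout, against 48.7%, 47.4%, 53.7% and 52.3% of all genes. Groups did not overlap in 13 of 20 member comparisons, against 59.8%, 48.1%, 59.2% and 55.6% of genes.

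The difference between genotypes in the D3 response was tested in unexposed libraries and passed for 4 of 5 members, against 17.5% of genes. The response of the knockout minus that of the wild type was −0.57 for MMP2 (SE 0.102, adjusted p = 0.00022), −0.53 for MMP15 (SE 0.098, adjusted p = 0.000325), 0.29 for TIMP1 (SE 0.058, adjusted p = 0.000751) and −0.21 for TIMP2 (SE 0.051, adjusted p = 0.00419). The TIMP2 value did not pass with median-of-ratios scaling (−0.14, adjusted p = 0.115). For MMP7 it was −0.001 (95% interval −0.13 to 0.12), so the fall of MMP7 differed between genotypes by no more than that interval allows. MMP2 in the knockout sits near the pseudocount of 1, where log2(FPKM + 1) compresses a change. On the FPKM scale, the ratio of D3 to no D3 was 0.946 in unexposed knockout and 1.44 in unexposed wild type.

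**Figure D4:**
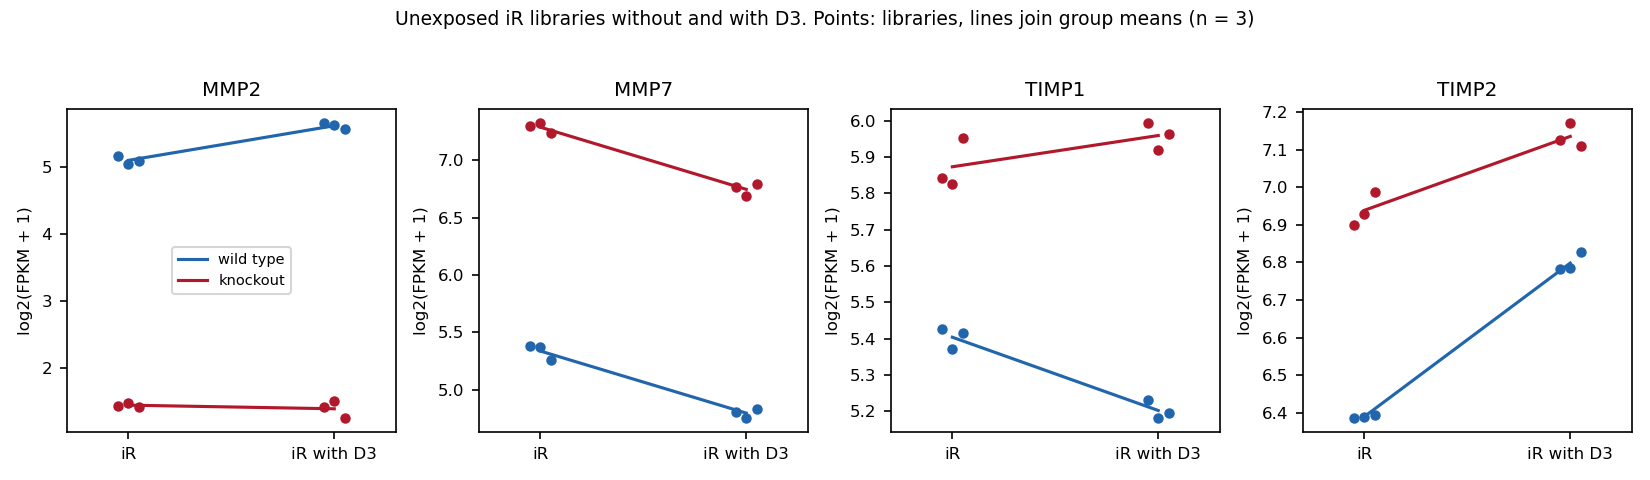
Log2(FPKM + 1) of MMP2, MMP7, TIMP1 and TIMP2 in unexposed iR libraries without and with D3, each point 1 library and lines joining the means of 3. The MMP7 lines are parallel (−0.54 in both genotypes), while those of MMP2 differ in slope by −0.57.

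The label iR could be compared only within the knockout. TIMP1 fell from 77.4, 76.1 and 76.4 FPKM in KOA_NE to 56.4, 55.7 and 60.9 FPKM in iR_KOA_NE, and from 77.5, 81.6 and 78.2 to 56.5, 53.1 and 54.5 FPKM with exposure. No iR library reached a library without iR, and the log2 differences were −0.41 and −0.52 (SE 0.041, adjusted p = 2.33e-08 and 1.82e-10). MMP7 differed by −0.04 unexposed (adjusted p = 0.443) and fell by 0.19 on the log2 scale with exposure (adjusted p = 0.00111). TIMP2 rose by 0.10 with exposure (adjusted p = 0.0307), a call lost without replicate 1 or 3 of KOA_EX or replicate 1 or 2 of iR_KOA_EX (adjusted p = 0.0532 to 0.138). MMP2 with exposure differed by −0.16 (adjusted p = 0.0714), and passed in the fit with the replicate number as a block (adjusted p = 0.0476), where same-numbered libraries deviated together. Calls numbered 1 of 5 unexposed and 3 of 5 exposed, against 38.5% and 39.8% of genes. MMP15 unexposed differed by 0.13 (adjusted p = 0.146) and passed without replicate 1 of iR_KOA_NE (0.20, adjusted p = 0.039). In exposed libraries MMP2, MMP7, TIMP1 and TIMP2 did not overlap between the groups, where 47.1% of genes did not, and in unexposed libraries TIMP1 and TIMP2 did not, where 51.2% of genes did not.

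Of 19 other MMPs and TIMP4, 17 were in the table and 3 passed the filter. MMP7 and MMP1 belong to the cluster of MMP genes on chromosome 11 (102520508 to 102955732), of which 8 of 9 RefSeq genes were in the table, and apart from MMP7 none exceeded 0.344 FPKM. MMP17, a membrane-anchored protease, was lower in the knockout by −1.11, −1.29, −1.39 and −1.47 (adjusted p = 7.03e-12, 3.34e-13, 5.64e-14 and 1.73e-14), from 5.93 ± 0.0787 to 2.22 ± 0.0847 FPKM in unexposed iR libraries (SD, n = 3). TIMP4 was higher by 0.67, 0.68, 0.42 and 0.44 (adjusted p = 3.02e-09 to 5.67e-06), from 17.3 ± 2.27 to 28.0 ± 0.714 FPKM. MMP24 was lower in the knockout by −0.15 in unexposed iR libraries (adjusted p = 0.00975), by −0.20 in unexposed D3 libraries (adjusted p = 0.000722) and by −0.19 in exposed D3 libraries (adjusted p = 0.00132), and did not pass in exposed iR libraries. The first call was lost without replicate 1 of iR_KOA_NE (−0.09, adjusted p = 0.113) and the second with median-of-ratios scaling (−0.10, adjusted p = 0.0616). With exposure MMP24 rose by 0.28 in KOA, 0.35 in iR_KOA and 0.14 in iR_WTA (adjusted p = 3.73e-05, 4.43e-06 and 0.0355), the last lost with no filter on low values (adjusted p = 0.0583) and in 4 fits without 1 of its libraries (adjusted p = 0.0654 to 0.133). MMP24 overlaps MMP24OS at 16.0 to 31.4 FPKM, and the counting's strand setting is unstated, so its reads are uncertain.

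The other lists are read against all 12,086 genes, of which genotype called 65.3%, 65.6%, 69.1% and 69.9% in the 4 comparisons, and of those called 42.7%, 41.7%, 35.9% and 37.2% rose. Of 15 tested genes that activate or restrain MMPs, 4, 4, 7 and 6 rose and 7, 6, 6 and 6 fell, with list medians of −0.07, −0.08, 0.02 and 0.10 beside −0.06, −0.05, −0.11 and −0.09 over all genes. SPOCK1, a testican proteoglycan, was at 5.32 ± 0.461 FPKM in unexposed iR wild type and 0.185 ± 0.0401 FPKM in the knockout (SD, n = 3; −2.41, adjusted p = 3.4e-21). TFPI2, a Kunitz-type serine protease inhibitor, rose from 23.0 ± 0.281 to 76.4 ± 2.12 FPKM (1.69, adjusted p = 4.38e-17). PCSK6, a furin-like proprotein convertase, rose from 1.21 ± 0.0336 to 4.47 ± 0.357 FPKM (1.31, adjusted p = 1.47e-15). With D3, FURIN, which cleaves the proenzymes of membrane-type MMPs, rose in unexposed knockout from 12.5 ± 0.543 to 27.6 ± 1.6 FPKM (1.09, adjusted p = 3.94e-15).

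In the same list 3, 2, 2, 2 and 1 genes rose with exposure in KOA, iR_KOA, iR_KOA_D3, iR_WTA and iR_WTA_D3, and 0, 1, 3, 2 and 3 fell, where 41.5%, 35.3%, 45.1%, 28.6% and 41.8% of all genes were called. PLAU, urokinase, rose in KOA, iR_KOA and iR_WTA by 0.19, 0.27 and 0.18 (adjusted p = 0.00541, 0.000314 and 0.00903).

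Of 10 tested ADAM and ADAMTS proteases, relatives of the MMPs, 3, 3, 3 and 3 rose and 7, 6, 6 and 7 fell in the knockout. The list medians were −0.30, −0.37, −0.22 and −0.24, beside −0.06, −0.05, −0.11 and −0.09 over all genes, of which 65.3%, 65.6%, 69.1% and 69.9% were called, most of them lower as well. ADAM19 went from 7.03 ± 0.606 to 2.30 ± 0.237 FPKM (SD, n = 3; −1.28, adjusted p = 1.55e-16) and ADAM12 from 3.74 ± 0.11 to 1.31 ± 0.0799 FPKM (−1.04, adjusted p = 3.49e-16) in unexposed iR libraries. ADAM17, the sheddase of TNF and EGF-family ligands, rose from 10.9 ± 0.489 to 16.2 ± 0.467 FPKM (0.53, adjusted p = 8.25e-11). With exposure none of the 10 rose, and 1, 2, 2, 1 and 1 fell in KOA, iR_KOA, iR_KOA_D3, iR_WTA and iR_WTA_D3. Of all genes, 41.5%, 35.3%, 45.1%, 28.6% and 41.8% were called. ADAM19 fell in iR_KOA_D3 and iR_WTA_D3 (−0.30 and −0.36, adjusted p = 0.000104 and 1.21e-05). Its falls in iR_KOA and iR_WTA (−0.15 and −0.21, adjusted p = 0.0417 and 0.00614) did not pass under every alternative.

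Of 14 tested AP-1, ETS and Wnt-linked transcription factors, which are known regulators of MMP genes, 3, 3, 3 and 4 rose and 8, 11, 8 and 10 fell in the knockout. The list medians were −0.31, −0.36, −0.31 and −0.44, beside −0.06, −0.05, −0.11 and −0.09 over all genes, of which 65.3%, 65.6%, 69.1% and 69.9% were called. FOSL1 went from 17.1 ± 1.28 to 4.13 ± 0.337 FPKM (SD, n = 3; −1.82, adjusted p = 8.76e-16) and ETS2 from 28.7 ± 1.31 to 7.72 ± 0.228 FPKM (−1.77, adjusted p = 2.77e-22) in unexposed iR libraries. ELF3, an epithelial ETS factor, was higher in the D3 knockout, at 120.7 ± 1.95 against 58.1 ± 0.603 FPKM (1.04, adjusted p = 1.82e-14). With exposure 4, 3, 2, 3 and 3 of the 14 rose and 6, 3, 7, 4 and 2 fell in KOA, iR_KOA, iR_KOA_D3, iR_WTA and iR_WTA_D3, where 41.5%, 35.3%, 45.1%, 28.6% and 41.8% of all genes were called. ETS2 fell in KOA from 6.27 ± 0.126 to 3.84 ± 0.101 FPKM (−0.59, adjusted p = 1.47e-11), and ELF3 fell in iR_WTA from 54.0 ± 2.86 to 40.7 ± 0.793 FPKM (−0.40, adjusted p = 1.02e-05). FOSL2 rose in KOA from 22.5 ± 0.32 to 35.4 ± 0.805 FPKM (0.63, adjusted p = 5.52e-13). It also rose in iR_KOA_D3 by 0.77 (adjusted p = 2.24e-14) and in iR_WTA_D3 by 0.35 (adjusted p = 4.86e-08). JUNB rose in iR_WTA from 13.4 ± 0.445 to 28.3 ± 3.17 FPKM (1.02, adjusted p = 2.55e-07) and JUN from 6.39 ± 0.347 to 13.5 ± 0.469 FPKM (0.98, adjusted p = 1.05e-08). Other AP-1 genes fell. FOS went from 2.08 ± 0.139 to 1.03 ± 0.57 FPKM in KOA (−0.63, adjusted p = 0.000357). JUND went from 31.9 ± 1.66 to 22.5 ± 1.1 FPKM in iR_KOA_D3 (−0.49, adjusted p = 8.03e-05).

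Of 18 tested matrix and cell-surface substrates, 6, 6, 5 and 5 rose and 10, 10, 11 and 12 fell in the knockout, with list medians of −0.21, −0.38, −0.41 and −0.56. Over all genes the medians were −0.06, −0.05, −0.11 and −0.09, and 65.3%, 65.6%, 69.1% and 69.9% were called. VCAN, a large matrix proteoglycan, went from 23.1 ± 0.847 to 0.932 ± 0.0396 FPKM in unexposed iR libraries (SD, n = 3; −3.64, adjusted p = 2.03e-26). COL5A1 went from 12.1 ± 0.495 to 2.02 ± 0.24 FPKM (−2.12, adjusted p = 8.6e-20). FN1, fibronectin, was higher in the D3 knockout, at 523.3 ± 17.5 against 90.6 ± 4.0 FPKM (2.52, adjusted p = 4.07e-25). With exposure 1, 0, 0, 1 and 1 of the 18 rose and 3, 1, 8, 1 and 3 fell in KOA, iR_KOA, iR_KOA_D3, iR_WTA and iR_WTA_D3, against 41.5%, 35.3%, 45.1%, 28.6% and 41.8% of all genes called. COL1A1, a substrate of MMP1 and MMP14, was the 1 that rose in KOA, from 0.482 ± 0.0351 to 2.23 ± 0.354 FPKM (1.12, adjusted p = 2.77e-09). It was also the 1 that rose in iR_WTA (0.59, adjusted p = 0.000105) and in iR_WTA_D3 (0.54, adjusted p = 0.000163). Its exposure response differed by iR in the knockout (interaction −0.90, adjusted p = 0.000224). COL7A1 and SDC1 fell in KOA, with log2 differences of −0.36 and −0.21 (adjusted p = 0.000555 and 0.000357).

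Likeness of pattern was measured by Pearson's r over the 10 group means of log2(FPKM + 1), as a description, since groups share a genotype. MMP2 was most like UGT1A9 (r = 0.9987), TMEM132D-AS1 (0.9984) and FZD8 (0.9981), of which the UGT1A genes share exons and the antisense RNA cannot be told from its sense partner. MMP7 was most like LGALS3 (0.9933), IGFBP2 (0.9912) and UNC13D (0.9909). TIMP1 was most like STMN3 (0.992), PRSS3 (0.9896) and NTS (0.9874), and TIMP2 like GABARAP (0.9773), GGT5 (0.9768) and RFTN1 (0.9763). No gene was as close to MMP15, for which the highest was SLC2A6 (0.8606). Among the members, MMP2 and MMP7 had r = −0.967, and MMP7 and TIMP1 had r = 0.934. Of the genes that overlap members in RefSeq, CEP295NL at TIMP2 reached 0.334 FPKM, SYN1 at TIMP1 0.0513 FPKM and SYN3 at TIMP3 0.00265 FPKM. WTAPP1 at MMP1 and 2 lncRNAs, at TIMP2 and TIMP3, have no value here.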

How the data were processed

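Per the labels' protocols, poly(A) RNA was primed with random hexamers and sequenced in pairs. Tools named, without versions, in the submitters' processing notes are HTSeq, HISAT2 and fastp, with the build GRCh38. Annotation and strand setting are unstated. The authors deposited 1 FPKM value per gene and library, which corrects for depth and gene length but not for composition. Columns were assigned by name. A further 6 columns, with names beginning EX_A549 or NC_A549, matched no sample and were not used. Whole reads were recovered for all 26,801 genes within 0.01.

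Log2(FPKM + 1) was fitted for all 10 groups with limma 3.58.1 (R 4.3.3, mean-variance trend, 20 residual degrees of freedom), over the 12,086 genes that reached 1 FPKM in 3 or more libraries. Benjamini-Hochberg adjustment was made within each of 21 comparisons, two-sided, with a threshold of 0.05. MMP1, MMP14 and TIMP3 were compared by exact permutation within conditions, chosen after seeing that they failed the filter. From each list, up to 3 called genes per comparison that reached 2 FPKM were eligible to be named, the largest differences first. The members, the lists and this rule were chosen with earlier results of these data known. Whether replicates are separate cultures is not in the labels, which also name no batch. The p-values thus rest on the spread between these libraries, which may be technical.

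Replicate numbers paired libraries (every same-number correlation over 0.1) in 2 of 15 comparisons, exposure in iR_KOA_D3 and iR in exposed KOA. Alternatives were a pseudocount of 0.1, no filter, median-of-ratios scaling, the replicate block, limma-voom on the recovered reads (added after seeing the data) and leaving out each library.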

Additional observations from a re-analysis of the deposited data

Results flagged for a closer look

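In unexposed iR libraries, the response to D3 differed between knockout and wild type for 4 of the 5 tested members by an interaction test (limma, Benjamini-Hochberg over 12,086 genes). The difference was −0.57 for MMP2 and −0.53 for MMP15, which both rose in the wild type, while in the knockout MMP15 fell and MMP2 did not pass. It was 0.29 for TIMP1, which fell in the wild type and did not pass in the knockout, and −0.21 for TIMP2, which rose in both genotypes. The TIMP2 value did not pass with median-of-ratios scaling (−0.14, adjusted p = 0.115). The test called 17.5% of all genes.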

How the results depend on the processing

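The genotype calls of MMP2, MMP7, TIMP1 and TIMP2 and the D3 calls of MMP7 kept their direction and passed under every alternative run, and no member's call reversed. Without the filter on low values, 1 member was called for exposure in KOA and 1 for exposure by iR in the knockout. Neither call was of the 5 tested members, as that fit also takes in the 3 low members. The same setting called 0 for exposure in iR_KOA_D3, which was also 0 with median-of-ratios scaling. Limma-voom called 1 for exposure in iR_WTA_D3. Leaving out 1 library gave 0 to 1 calls for exposure in iR_KOA, iR_KOA_D3 and iR_WTA_D3 and for exposure by D3 in the knockout, and 1 to 2 for iR in unexposed knockout. Over all genes, exposure by genotype in iR called 65 genes, 40 with a pseudocount of 0.1 and 30 to 75 with 1 library left out. Leaving out 1 library gave 170 to 504 for exposure by genotype with D3 (288 in full), 245 to 911 for exposure by D3 in the knockout (500), 88 to 506 in the wild type (202) and 406 to 695 for exposure by iR (614). The cause was not tested. Median-of-ratios scaling moved the share of higher calls by over 10 percentage points in 10 of 21 comparisons, for D3 by genotype from 29.6% to 53.1%, and shifted the median of all genes by at most 0.082. The replicate block changed 1 member call, MMP2 for iR in exposed KOA (−0.16, adjusted p = 0.0476), and moved no count of calls by over 1.5 times. Same-number correlations ran from −0.325 to 0.306 over all 15 comparisons, and in 13 not every one was over 0.1. In 3 comparisons every library correlated best with its own number. One of these was exposure in KOA, which missed the cut of 0.1 (0.0868, 0.0652 and 0.119). What a shared number means is thus not settled by these correlations. The planned count-model test was not run, since the deposited values are FPKM. Values of MMP1 and TIMP3 rest on few reads.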
